A study of Homo sapiens with 18 samples.

Results

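Of the 60683 gene IDs in the deposited count table, 33 belonged to genes of fatty acid synthesis, activation and oxidation, chosen by gene symbol. They divide by role into 12 genes of synthesis, elongation and desaturation (ACLY, ACACA, ACACB, FASN, SCD, ELOVL1, ELOVL5, ELOVL6, ELOVL7, FADS1, FADS2 and FADS3) and 4 acyl-CoA synthetases that activate fatty acids (ACSL1, ACSL3, ACSL4 and ACSL5). A further 16 serve oxidation (CPT1A, CPT2, SLC25A20, ACADM, ACADS, ACADVL, HADH, HADHA, HADHB, ACAA1, ACAA2, ECI1, ECI2, ETFA, ETFB and MLYCD), and 1 encodes a lipid droplet coat protein (PLIN2). All 33 were found, and 32 had enough counts to be tested, PLIN2 being the exception.

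Cal27, a human squamous carcinoma line of the tongue in wide use, was cultured for 24 hours. The 6 groups of 3 libraries were glucose-deprived medium with calcitonin gene-related peptide (CGRP), glucose-deprived control, high-glucose DMEM containing 5 mM 2-deoxyglucose (2-DG) with CGRP, its control, high-glucose DMEM with CGRP, and the high-glucose control. CGRP, a neuropeptide of sensory nerves that acts through a receptor raising cyclic AMP, was the recombinant human form at 10 nM, and 2-DG is a glucose analogue that blocks glycolysis. Library titles carry the codes TG and capTG, taken here as CGRP and control medium from the design text, whereas the growth protocol mentions just different CM. Each statement on CGRP below rests on that reading. The 3 libraries of a group are independent repetitions of 1 cell line, per the series' text.

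Fatty acid synthesis starts in the cytosol, where ACLY splits citrate to acetyl-CoA, the acetyl-CoA carboxylases make malonyl-CoA, and FASN builds palmitate from both. Elongases and desaturases then lengthen palmitate or place double bonds in it, SCD making the monounsaturated products. Oxidation runs in mitochondria: acyl-CoA synthetases activate the chains, the carnitine shuttle (CPT1A, SLC25A20, CPT2) carries them inside, and dehydrogenases, hydratases and thiolases shorten them. Malonyl-CoA inhibits CPT1A, which sets synthesis and oxidation against each other. SREBF1 is known as the main transcriptional activator of the synthesis genes, and receptors of the PPAR family as activators of the oxidation genes.

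The libraries held between 28.04M and 32.66M counts, of which the 33 genes took 0.257% to 0.457%. In a principal component analysis over all tested genes, the first component (68.7% of the variance) separated deprived from other libraries, and 2 libraries stood apart from their groups on the second (7.39%). These were deprived CGRP replicate 2 and 2-DG control replicate 2. Relative to its mates, the first ran from -0.92 (ACACA) to 1.36 (ETFB) on the log2 scale over the 32 genes, and the second from -0.71 (ACACB) to 0.93 (ETFB). Across these 32 genes the deviation of each library fell with exon length (Spearman's rho -0.412 in deprived CGRP replicate 2 and -0.433 in 2-DG control replicate 2, genes of 1 library sharing its depth), and its part in the results was not tested. The deviation also ran with class, most synthesis genes lying below their mates and most oxidation genes above in both libraries. In deprived CGRP replicate 2 synthesis genes summed to 1118 CPM, against 1312 and 1303 CPM in its mates, and oxidation genes to 1391 CPM, against 1175 and 1174 CPM. In 2-DG control replicate 2 these sums were 1806 CPM, against 2148 and 2104 CPM, and 1793 CPM, against 1615 and 1640 CPM. Results are therefore also given without both libraries, a setting chosen after the data were seen. Of the 8 squamous epithelial markers all were expressed, with summed levels of 3462 to 4929 CPM (counts scaled to library size) across libraries and 3462 to 3774 CPM in the deprived ones. Of 6 adipocyte markers 1 had enough counts to test, 3 or 4 were at 0 in each group, and their sum did not exceed 1.23 CPM in any library. Summed markers of other cell types were lower in all deprived libraries than in all others. With CGRP, sums of endothelial, leukocyte and Schwann cell or neuron markers were higher without overlap in each medium. Sums of 3 endothelial markers were 3.08 to 3.87 CPM in deprived CGRP and 1.79 to 2.63 CPM in deprived control libraries, 39.4 to 43.6 CPM in 2-DG CGRP and 21.2 to 25.1 CPM in 2-DG control libraries, and 42.3 to 43.9 CPM in high-glucose CGRP and 24.3 to 25.2 CPM in high-glucose control libraries. Sums of 5 fibroblast markers were 10.5 to 11.5 CPM in deprived control libraries, against 24.3 to 25.7 CPM in high-glucose control libraries, and those of 5 leukocyte markers 0.0344 to 0.0987 CPM, against 2.19 to 2.40 CPM. With CGRP the fibroblast sums overlapped those of control in these media, at 10.9 to 16.2 CPM in deprived and 24.7 to 27.3 CPM in high-glucose libraries. The part of these differences in the results below was not tested.

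Transcript levels per length set the genes far apart in the high-glucose control. SCD led with 151 CPM per kilobase of exon, followed by ACADVL, the very-long-chain acyl-CoA dehydrogenase, with 91.6 and HADHA, the alpha subunit of the mitochondrial trifunctional protein, with 76.7. CPT1A, the rate-limiting enzyme of mitochondrial fatty acid entry, had 38.2 CPM per kilobase, close to ACLY with 36.9 and FASN with 34.7. The lowest levels belonged to ACACB, the carboxylase isoform of the mitochondrial outer membrane, with 0.815, the malonyl-CoA decarboxylase MLYCD with 0.72, the mitochondrial thiolase ACAA2 with 0.686, and PLIN2 with 0.0559 CPM per kilobase. ACAA2 and PLIN2 are low here for genes of their kind. The rules by which reads were counted are not given, so their values describe the deposited counts, and whether counting has a part in them was not tested.

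Glucose deprivation lowered the genes at the core of synthesis. In control medium 24 of the 32 genes passed the test (edgeR's quasi-likelihood test, Benjamini-Hochberg adjusted p under 0.05 over all tested genes), 6 rising and 18 falling, which is 75.0% of them against 60.6% of all 18159 tested genes. In these bulk cultures, fewer cells expressing a gene and less RNA per cell cannot be told apart. All 12 genes of synthesis, elongation and desaturation passed, 4 rising and 8 falling, with a median log2 fold change of -0.41, against 0.02 over all tested genes. Of the 16 oxidation genes 2 rose and 7 fell, with a median of -0.25, and 3 of the 4 acyl-CoA synthetases fell. With CGRP in both media the counts were again 6 rising and 18 falling, against 60.4% of all tested genes. Without both libraries that stood apart, 7 rose and 23 fell without CGRP (72.4% of all tested genes called) and 6 rose and 24 fell with it (69.9%).

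SCD, the stearoyl-CoA desaturase, fell the most. In control medium SCD was at 209, 193 and 202 CPM in the 3 deprived libraries, against 818, 786 and 819 CPM in the 3 high-glucose libraries. With CGRP it was at 249, 160.1 and 248 CPM in deprived libraries, against 916, 920.0 and 927 CPM in high-glucose libraries. Every deprived library lay below every high-glucose library in both arms. The log2 fold change was -2.01 ± 0.13 (SE, adjusted p = 1.1e-09) without CGRP and -2.07 ± 0.13 (adjusted p = 6.8e-10) with it. FASN was at 98.9, 93.9 and 94 CPM in deprived control libraries, against 324, 327 and 323 CPM in high-glucose control libraries. With CGRP, FASN was at 95.9, 60.2 and 102 CPM in deprived libraries, against 349, 353 and 339.9 CPM in high-glucose libraries. The groups did not overlap, and deprived CGRP replicate 2 was the lowest of all for FASN. Its log2 fold changes were -1.76 ± 0.15 without CGRP and -2.01 ± 0.15 with it (adjusted p = 2.3e-08 and 4.9e-09).

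ACLY and both acetyl-CoA carboxylases fell less than SCD and FASN. ACACA, the cytosolic acetyl-CoA carboxylase, was at 124, 127 and 129 CPM in deprived control libraries, against 201, 206 and 204 CPM in high-glucose control libraries. With CGRP it was at 128, 67.7 and 129 CPM in deprived libraries, against 195, 184 and 187 CPM in high-glucose libraries. Deprived CGRP replicate 2 was again the lowest, and no groups overlapped. ACACA changed by -0.68 ± 0.18 without CGRP and -0.80 ± 0.18 with it on the log2 scale (adjusted p = 0.0033 and 0.001). ACLY was at 131, 121 and 129 CPM in deprived control libraries, against 191, 196 and 189.8 CPM in high-glucose control libraries. With CGRP, ACLY was at 119, 83.5 and 112 CPM in deprived libraries, against 191, 196 and 192 CPM in high-glucose libraries. The deprived libraries again lay below all high-glucose libraries, by -0.60 ± 0.10 without CGRP and -0.88 ± 0.10 with it (adjusted p = 8.1e-05 and 1.5e-06). ACACB was at 5.99, 6.75 and 6.66 CPM in deprived control libraries, against 11.9, 11.4 and 12.2 CPM in high-glucose control libraries, a log2 fold change of -0.87 ± 0.17 (adjusted p = 3.6e-04). With CGRP it was at 7.49, 5.01 and 8.25 CPM in deprived libraries, against 12.6, 10.9 and 12.5 CPM in high-glucose libraries, a log2 fold change of -0.79 ± 0.17 (adjusted p = 7.9e-04), and neither pair of groups overlapped. Of the other fallers of this class, ELOVL5, an elongase of polyunsaturated chains, changed by -0.49 and -0.41, ELOVL6, which lengthens palmitate, by -0.34 and -0.36, and the desaturase FADS1 by -0.30 and -0.35 without and with CGRP.

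**Figure D1:**
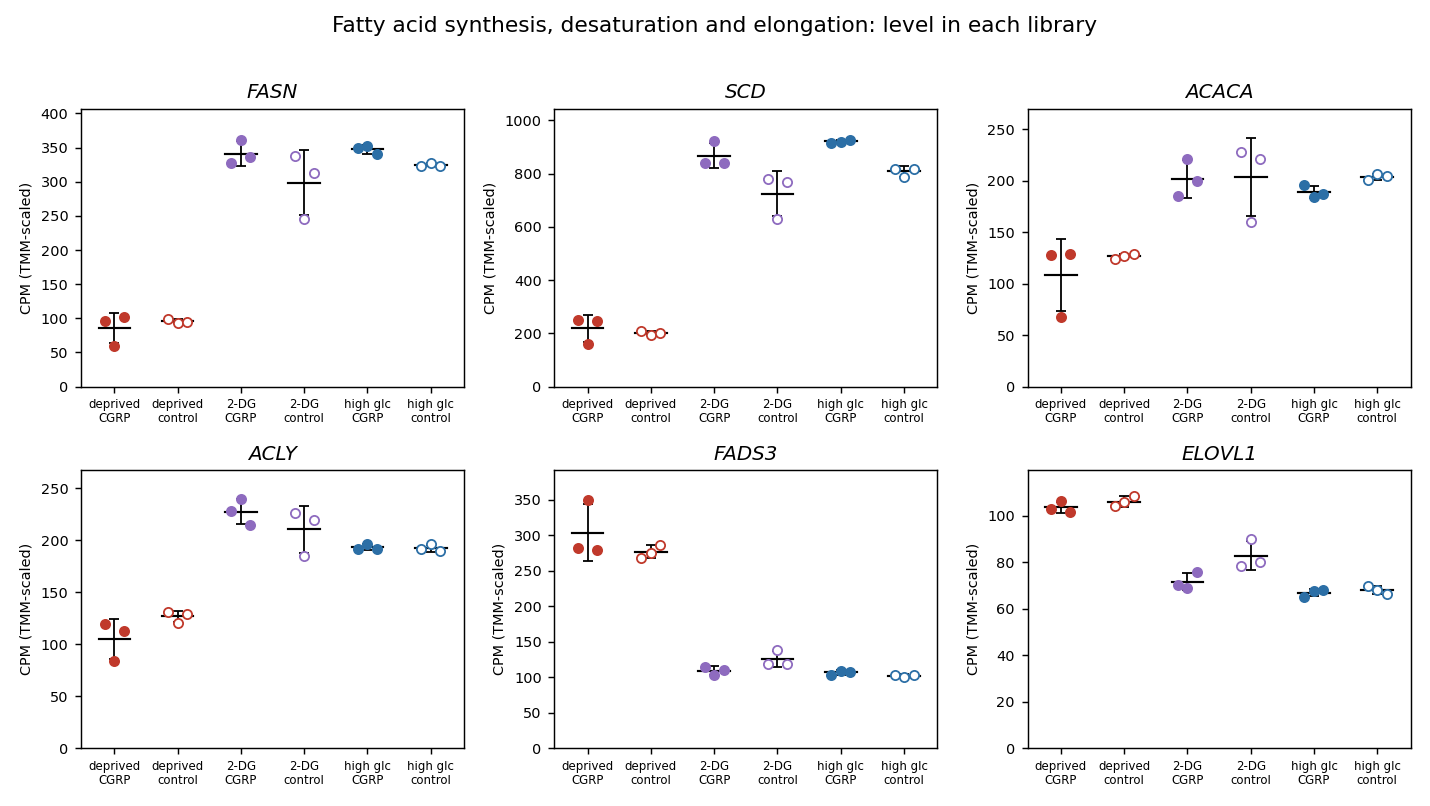
Level of 6 genes of synthesis and desaturation in each of the 18 libraries (vertical axes, CPM scaled by TMM, starting at 0), with the 6 groups along the horizontal axes; points are libraries, filled for CGRP and open for control, and black lines give the mean and SD of 3. SCD and FASN are low in all 6 deprived libraries and FADS3 is high in all 6.

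A minority of the same class rose. FADS3, a desaturase that acts on sphingoid bases, was at 268, 276 and 286 CPM in deprived control libraries, against 102, 99.8 and 104 CPM in high-glucose control libraries. In the CGRP arm it was at 282, 349.9 and 279 CPM in deprived libraries, against 103, 109 and 108 CPM in high-glucose libraries. Deprived libraries were higher throughout, with log2 fold changes of 1.44 ± 0.08 and 1.51 ± 0.08 without and with CGRP (adjusted p = 2.7e-10 and 1.5e-10). ELOVL1, an elongase of very-long saturated chains, was at 104, 106 and 108 CPM in deprived control libraries, against 69.7, 68 and 66.3 CPM in high-glucose control libraries. With CGRP, ELOVL1 was at 103, 106 and 102 CPM in deprived libraries, against 65.2, 67.7 and 67.8 CPM in high-glucose libraries. ELOVL1 therefore rose in both arms, by 0.64 ± 0.06 and 0.63 ± 0.06 on the log2 scale (adjusted p = 3.7e-08 and 4.6e-08). FADS2, the first desaturase of the polyunsaturated pathway and the neighbour of FADS1 and FADS3 in the genome, was at 20.6, 23.4 and 21 CPM in deprived control libraries, against 13.3, 14.6 and 15 CPM in high-glucose control libraries. In the CGRP arm the level was 24.8, 21.8 and 22.2 CPM in deprived libraries, against 15.1, 15.7 and 14.8 CPM in high-glucose libraries. The rise of FADS2 was 0.60 ± 0.07 and 0.59 ± 0.07 (adjusted p = 1.7e-06 and 1.9e-06), so 2 of the 3 FADS genes rose while FADS1 fell. ELOVL7, an elongase of long saturated chains, was at 52.5, 50.5 and 52.3 CPM in deprived control libraries, against 34.5, 36.2 and 34.9 CPM in high-glucose control libraries. With CGRP, ELOVL7 was at 50.9, 40.5 and 50.0 CPM in deprived libraries, against 34.3, 34 and 34.2 CPM in high-glucose libraries. The groups stayed apart in both arms, with log2 fold changes of 0.56 ± 0.08 and 0.47 ± 0.08 (adjusted p = 8.5e-06 and 5.6e-05).

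The promoters of SCD and ACLY, which fell with deprivation, of FADS3, which rose, and of ACAA2 and ACADVL, which fell with CGRP as described further on, are shown as those of the genes the results turn on. Each window runs from 250 bases before to 50 after the gene's start in RefSeq (GRCh38.p14), read 5′ to 3′ on the gene's strand, and capitals mark CCAAT on either strand, the letters bound by the factor NF-Y.
SCD (chr10:100346983-100347282, plus strand): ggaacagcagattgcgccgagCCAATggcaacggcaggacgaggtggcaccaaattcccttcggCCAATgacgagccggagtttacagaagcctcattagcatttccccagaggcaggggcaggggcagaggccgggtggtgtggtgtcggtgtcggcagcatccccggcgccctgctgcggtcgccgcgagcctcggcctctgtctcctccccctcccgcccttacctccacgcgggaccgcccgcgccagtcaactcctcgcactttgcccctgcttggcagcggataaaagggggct
ACLY (chr17:41918973-41919272, minus strand): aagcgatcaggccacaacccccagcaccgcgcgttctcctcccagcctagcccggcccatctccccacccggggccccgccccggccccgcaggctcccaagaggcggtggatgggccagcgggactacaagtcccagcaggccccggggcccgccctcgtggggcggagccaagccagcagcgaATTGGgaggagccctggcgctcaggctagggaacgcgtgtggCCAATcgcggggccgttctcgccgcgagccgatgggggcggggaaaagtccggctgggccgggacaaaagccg
FADS3 (chr11:61891496-61891795, minus strand): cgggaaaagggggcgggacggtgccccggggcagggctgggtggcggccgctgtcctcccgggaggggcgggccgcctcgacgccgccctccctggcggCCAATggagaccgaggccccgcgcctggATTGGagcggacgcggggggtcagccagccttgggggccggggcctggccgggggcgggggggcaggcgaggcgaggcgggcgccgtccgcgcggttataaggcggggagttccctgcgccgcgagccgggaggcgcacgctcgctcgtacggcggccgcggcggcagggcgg
ACAA2 (chr18:49813484-49813783, minus strand): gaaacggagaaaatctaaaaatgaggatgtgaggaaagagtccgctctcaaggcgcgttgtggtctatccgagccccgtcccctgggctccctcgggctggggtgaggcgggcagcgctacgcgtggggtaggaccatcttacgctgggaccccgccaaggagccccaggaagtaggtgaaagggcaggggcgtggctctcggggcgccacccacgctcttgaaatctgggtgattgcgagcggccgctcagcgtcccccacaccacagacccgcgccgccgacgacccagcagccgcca
ACADVL (chr17:7216875-7217174, plus strand): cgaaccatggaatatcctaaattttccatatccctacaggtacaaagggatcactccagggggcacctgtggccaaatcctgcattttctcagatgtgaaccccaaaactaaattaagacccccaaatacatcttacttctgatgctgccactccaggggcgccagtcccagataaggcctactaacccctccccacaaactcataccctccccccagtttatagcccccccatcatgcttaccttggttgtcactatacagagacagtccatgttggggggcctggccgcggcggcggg
Promoters in that table matched 31 of the 33 genes, and FASN and ACAA1 had no entry. CCAAT stood in 9 of the 31 windows, which is 29%, against 34.6% of 35116 promoters of the same length. By class it stood in 5 of 11 synthesis windows and 3 of 15 oxidation windows. SCD carried it at positions -229 and -186 from the start, ACLY at -65 and -23, and FADS3 at -151 and -123. The E-box CACGTG was found in the windows of ELOVL5 and PLIN2, against 7.26% of all promoters. The sterol regulatory element TCACCCCAC, the PPAR-type direct repeat DR1 and the amino acid response element TGATGNAAT were each sought on both strands and found in 0 of the 31 windows. They stood in 0.43%, 0.0228% and 0.991% of all promoters.

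Among the oxidation genes deprivation lowered HADH, ACAA2, SLC25A20, ECI2, CPT1A, ETFA and HADHA in both arms. HADH, the short-chain hydroxyacyl-CoA dehydrogenase, was at 19.8, 19.5 and 19.5 CPM in deprived control libraries, against 33.2, 34.9 and 34.3 CPM in high-glucose control libraries. In the CGRP arm it was at 15.9, 17.6 and 15.5 CPM in deprived libraries, against 32.1, 35.1 and 31.5 CPM in high-glucose libraries. Both pairs of groups were apart, with log2 fold changes of -0.80 ± 0.06 and -1.01 ± 0.06 (adjusted p = 3.5e-09 and 2.1e-10). ACAA2 had 67, 55 and 56 counts in deprived control libraries, against 105, 103 and 109 counts in high-glucose control libraries. With CGRP it had 10, 18 and 17 counts in deprived libraries, against 30, 41 and 37 counts in high-glucose libraries. ACAA2 changed by -0.80 ± 0.17 without CGRP and -1.08 ± 0.25 with it (adjusted p = 8.6e-04 and 0.0014), the groups being apart in both. SLC25A20, the carnitine-acylcarnitine carrier, was at 5, 4.65 and 5 CPM in deprived control libraries, against 8.04, 7.87 and 7.6 CPM in high-glucose control libraries, and its log2 fold changes were -0.68 ± 0.10 and -0.52 ± 0.11 without and with CGRP (adjusted p = 2.3e-05 and 4.9e-04). The peroxisomal enoyl-CoA isomerase ECI2 changed by -0.66 and -0.51, CPT1A by -0.47 and -0.66, ETFA, a subunit of the electron transfer flavoprotein, by -0.45 and -0.41, and HADHA by -0.28 and -0.31. ECI2 shares 29.8% of its exon bases with other genes in GENCODE 29, so its reads may be shared, since the strand setting of the counts is not given.

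MLYCD and ECI1 rose. MLYCD, which degrades malonyl-CoA and thereby relieves CPT1A, was at 18.9, 20.3 and 19.2 CPM in deprived control libraries, against 11.4, 11.7 and 11.9 CPM in high-glucose control libraries. In the CGRP arm the level was 15.5, 16.3 and 15.8 CPM in deprived libraries, against 9.52, 8.38 and 8.87 CPM in high-glucose libraries. All deprived libraries of an arm were above its high-glucose libraries, with log2 fold changes of 0.74 ± 0.06 and 0.83 ± 0.06 (adjusted p = 1.2e-08 and 4.0e-09). ECI1, the mitochondrial enoyl-CoA isomerase, was at 82.1, 81.2 and 81.4 CPM in deprived control libraries, against 55.5, 57.5 and 57 CPM in high-glucose control libraries. With CGRP, ECI1 was at 71.7, 115 and 66.7 CPM in deprived libraries, against 50.6, 58.9 and 55.8 CPM in high-glucose libraries. It changed by 0.52 ± 0.16 and 0.61 ± 0.16 (adjusted p = 0.01 and 0.0037), with deprived CGRP replicate 2 the highest library. Without both libraries that stood apart, the value with CGRP was 0.30, still called. The ECI1 call was lost with no low-count filter in control medium (adjusted p = 0.052) and in a fit of only the groups compared with CGRP (adjusted p = 0.053). The dehydrogenases ACADM, ACADS and ACADVL, together with CPT2, HADHB, ACAA1 and ETFB, passed in neither arm in the fit of all libraries. Their log2 fold changes ran from -0.43 (ETFB) to 0.11 (ACADVL) without CGRP and from -0.20 (ETFB) to 0.25 (ACADS) with it. Without both libraries that stood apart, 6 of these 7 were called with CGRP, all lower, among them ETFB at -0.82, ACAA1 at -0.27, HADHB at -0.24 and ACADVL at -0.21, while ACADS had 0.07. Without CGRP, 5 were called in that setting, ACADVL higher (0.08) and ETFB, ACAA1, CPT2 and ACADM lower (-0.46, -0.25, -0.13 and -0.08).

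Of the acyl-CoA synthetases, ACSL5, a mitochondrial and endoplasmic reticulum form, changed by -0.52 ± 0.05 and -0.73 ± 0.05 on the log2 scale without and with CGRP. ACSL1 changed by -0.46 ± 0.07 and -0.39 ± 0.07, and ACSL3, a form of the endoplasmic reticulum and lipid droplets, by -0.20 ± 0.05 and -0.20 ± 0.06. All 6 values passed, while ACSL4, which prefers arachidonate, had -0.08 ± 0.09 and -0.17 ± 0.09 and did not (adjusted p = 0.5 and 0.13). At least 2-fold changes were seen for 3 of the 32 genes without CGRP (SCD, FASN and FADS3) and 5 with it (these and HADH and ACAA2), against 20.8% of all tested genes in each arm.

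**Figure D2:**
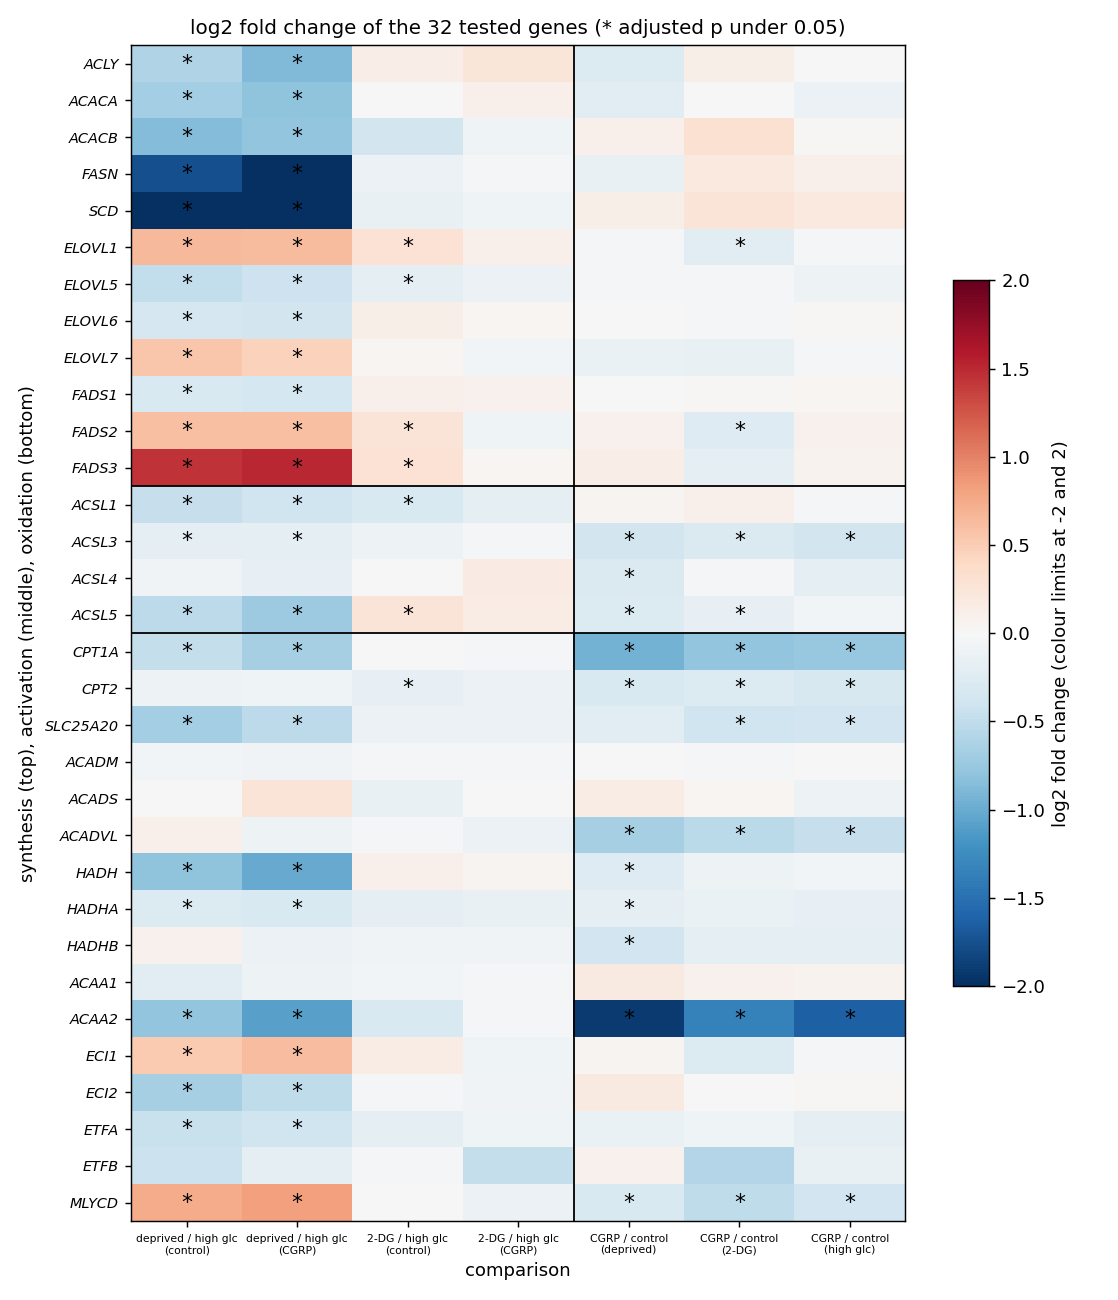
log2 fold change of the 32 tested genes (vertical axis, grouped into synthesis, activation and oxidation) in the 4 comparisons with high glucose and the 3 comparisons of CGRP with control (horizontal axis); blue is lower and red higher in the group named first, with colours limited at -2 and 2. Stars mark an adjusted p under 0.05 in the fit of all libraries: there the changes with deprivation are in all 3 classes, and those with CGRP are mostly among activation and oxidation genes.

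Of 91 other tested genes of fatty acid and glyceride metabolism and their control, 22 rose and 41 fell with deprivation in control medium, and 25 rose and 37 fell with CGRP present. These are 69.2% and 68.1% of the 91, against 60.6% and 60.4% of all tested genes. Here and below, other pathway genes are ranked among those called with a mean log2 CPM of at least 0. Outside these limits, values with deprivation ran down to -2.73 in control medium and -3.02 with CGRP. The largest falls ranked in control medium were those of INSIG1, a sterol-sensing retention protein of the SREBP system, at -2.92 ± 0.06, of ANGPTL4, a secreted inhibitor of lipoprotein lipase, at -1.95 ± 0.17, and of the droplet protein PLIN4 at -1.85 ± 0.15. The largest rises were those of the dehydrogenase ACAD11 at 1.90 ± 0.32, of monoglyceride lipase (MGLL) at 1.53 ± 0.09 and of the nuclear receptor PPARG at 1.32 ± 0.10. With CGRP, ANGPTL4 (-3.32), INSIG1 (-2.75) and PNPLA3 (-1.62) fell the most of the genes ranked, and ACAD11 (1.70), MGLL (1.62) and MLXIPL (1.27) rose the most. SREBF1 fell by 1.16 and 1.06 on the log2 scale without and with CGRP, and SREBF2, its relative of cholesterol synthesis, fell by 1.09 and 1.06. PPARD fell by 0.24 and 0.40, while PPARA had 0.35 and 0.28 and passed in neither arm. TXNIP, a glucose-induced arrestin, fell by 5.42 and 6.10. The coactivator PPARGC1A fell by 1.92 without CGRP and had -0.49 with it (adjusted p = 0.08).

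In the fit of all libraries, 2-DG in high-glucose medium moved few of the genes. In control medium 7 of the 32 passed, 4 rising and 3 falling, which is 21.9% against 13.8% of all tested genes, and none of them changed 2-fold, against 0.969%. The risers were 3 genes that deprivation had also raised, and ACSL5, which deprivation had lowered. FADS3 was at 118, 139 and 119 CPM in 2-DG control libraries, ELOVL1 at 78.4, 89.9 and 80.2 CPM, FADS2 at 16.3, 18.2 and 17 CPM, and ACSL5 at 56.3, 56 and 58.4 CPM, against 47.8, 48.5 and 46.4 CPM for ACSL5 in high-glucose control libraries. All 3 libraries of each lay above the high-glucose control. Their log2 fold changes were 0.30 ± 0.08 for FADS3, 0.28 ± 0.06 for ELOVL1, 0.26 ± 0.07 for FADS2 and 0.26 ± 0.05 for ACSL5 (adjusted p = 0.024, 0.0024, 0.022 and 0.0019). ACSL1 was at 40.6, 35.2 and 43.6 CPM in 2-DG control libraries, against 49.6, 47.8 and 49.8 CPM in high-glucose control libraries, and changed by -0.30 ± 0.07 (adjusted p = 0.011). ELOVL5 was at 172, 174 and 173 CPM in 2-DG control libraries, against 198, 203 and 191 CPM in high-glucose control libraries, and changed by -0.19 ± 0.04 (adjusted p = 0.0042). CPT2, the inner-membrane carnitine transferase, was at 44.2, 44 and 41.6 CPM in 2-DG control libraries, against 48, 47.8 and 49.2 CPM in high-glucose control libraries, and changed by -0.16 ± 0.04 (adjusted p = 0.023). SCD and FASN had log2 fold changes of -0.16 ± 0.12 and -0.12 ± 0.14 and did not pass (adjusted p = 0.47 and 0.64).

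With CGRP in both media, 0 of the 32 genes passed between 2-DG and high glucose in edgeR's quasi-likelihood test, against 2.39% of all tested genes. At an unadjusted p under 0.05 there were 6, and DESeq2 called 1, which fell. The shares of all tested genes at these 2 rules are not given here, so both counts are not read as a result on the 32 genes. These 2-DG counts moved with the samples fitted. In control medium, 4 genes passed without high-glucose control replicate 1 (8.79% of all tested genes called), and 2 in a fit of only the groups compared (9.2%). With CGRP, 8 passed in that fit (13.9%). FADS3 lost its call without any 1 high-glucose control library or 2-DG control replicate 2, CPT2 without any 1 high-glucose control library or 2-DG control replicate 3, and FADS2 without high-glucose control replicate 1 or 2-DG control replicate 2 or 3. Without both libraries that stood apart, 8 rose and 10 fell in control medium (32.5% of all tested genes called) and 3 rose and 8 fell with CGRP (19.5%). By class in control medium, 3 of 12 synthesis genes rose and 1 fell in the fit of all libraries (median 0.07). Of 16 oxidation genes 0 rose and 1 fell (median -0.05). Without both libraries, 7 synthesis genes rose and 1 fell (0.15), and 0 oxidation genes rose and 8 fell (-0.15). With CGRP the synthesis and oxidation medians were 0.006 and -0.08 in the fit of all libraries, and -0.004 and -0.09 without both. Of the 91 other pathway genes 6 rose and 13 fell in control medium (20.9%, against 13.8% of all tested genes), led by PPARG (0.51), MGLL (0.44) and SLC27A4 (0.40) upward and PLIN5 (-0.85), LIPE (-0.84) and PLIN4 (-0.71) downward. With CGRP, 6.59% of the 91 passed, against 2.39% of all tested genes: 1 rose, ACSS2 (0.26), and 5 fell, led by LIPE (-0.49), EHHADH (-0.44) and PNPLA2 (-0.42). SREBF1 fell by 0.31 and 0.40 without and with CGRP, and TXNIP rose by 0.30 and 0.28. SREBF2 (-0.22 and -0.14), PPARD (-0.15 and -0.12), PPARA (-0.10 and -0.02) and PPARGC1A (-0.56 and 0.22) passed in neither arm.

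Set directly against deprivation in control medium, 2-DG gave 15 higher and 5 lower of the 32 genes, against 57.5% of all tested genes called. SCD was at 778, 629 and 768 CPM in the 2-DG control libraries, FASN at 337, 246 and 312 CPM, and HADH at 35.8, 37.6 and 36.3 CPM, all above the deprived control libraries given above. Their log2 fold changes, 2-DG over deprived, were 1.85 ± 0.13, 1.64 ± 0.14 and 0.90 ± 0.06. ACSL5 (0.78 ± 0.05), ACLY (0.73 ± 0.10) and ACACA (0.68 ± 0.18) followed, the last 2 at 227, 185 and 219.8 and at 228, 159.6 and 221 CPM in 2-DG control libraries. ACSL5 was at 35.2, 31.5 and 32.7 CPM in deprived control libraries, below all 2-DG control libraries. The 5 lower genes were FADS3 (-1.14 ± 0.08), MLYCD (-0.74 ± 0.06), ELOVL7 (-0.51 ± 0.08), ELOVL1 (-0.36 ± 0.05) and FADS2 (-0.34 ± 0.07). In 2-DG control libraries MLYCD was at 11.7, 11.3 and 12 CPM and ELOVL7 at 37.9, 32.7 and 38.3 CPM, with no overlap with the deprived control libraries. The other 9 that were higher ran from 0.27 (ETFA) to 0.63 (ECI2). Of the other pathway genes 35 were higher and 23 lower (63.7%, against 57.5% of all tested genes), led by INSIG1 (2.69), ANGPTL4 (1.99) and PNPLA3 (1.49) upward and ACAD11 (-1.91), MLXIPL (-1.76) and MGLL (-1.09) downward. SREBF1 (0.85), SREBF2 (0.87), PPARGC1A (1.35) and TXNIP (5.71) were higher with 2-DG, and PPARA (-0.45) and PPARD (0.10) did not pass. The calls of ACAA2 (without deprived control replicate 2 or 3 or 2-DG control replicate 2 or 3), ACACB (without deprived control replicate 1 or 2-DG control replicate 1 or 3) and ETFA (without 2-DG control replicate 2) were lost with 1 library left out. These fold changes share the deprived and 2-DG control libraries with the comparisons above.

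CGRP lowered genes of fatty acid import and oxidation in all 3 media, and in the fit of all libraries raised 0 of the 32 genes in any. In deprived medium 11 genes fell, where 13% of all tested genes were called and 6.58% fell. In 2-DG medium 10 fell, where 12.2% of all were called and 6.89% fell. In high glucose 7 fell, where 4.33% of all were called and 2.29% fell. The shares of the 32 genes called were 34.4% in deprived medium, 31.2% in 2-DG medium and 21.9% in high glucose. By class, 6 of 16 oxidation genes fell in high glucose, 8 in deprived medium and 6 in 2-DG medium. Of the 12 synthesis genes 0 passed in high glucose and in deprived medium, and 2 fell in 2-DG medium. Without both libraries that stood apart, synthesis genes passed in each medium. There 3 rose and 1 fell in deprived medium, 1 rose and 5 fell in 2-DG medium, and 2 rose and 1 fell in high glucose. Of the oxidation genes 11, 8 and 9 fell and 0, 2 and 0 rose in that order of media. In that setting 28.7%, 28.4% and 19.1% of all tested genes were called. Called falls in the fit of all libraries were shared by CPT1A, CPT2, ACADVL, ACAA2, MLYCD and ACSL3 in all 3 media. The share of all tested genes that fell in all 3 is not given here.

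CPT1A was at 103, 74.5 and 103 CPM in deprived CGRP libraries, against 179, 179.8 and 185 CPM in deprived control libraries. In 2-DG medium it was at 139, 146 and 149.6 CPM with CGRP, against 264, 227 and 257 CPM in control. In high glucose it was at 153, 141 and 149 CPM with CGRP, against 247, 254 and 251 CPM in control. Every CGRP library lay below every control library of its medium. The log2 fold changes were -0.95 ± 0.10 in deprived medium, -0.78 ± 0.09 in 2-DG medium and -0.77 ± 0.09 in high glucose (adjusted p = 1.3e-05, 4.5e-05 and 1.5e-04), a fall of 48.3%, 42% and 41.2%. Deprivation and CGRP both lowered CPT1A, and the deprived CGRP group had the lowest level, 93.6 ± 16.5 CPM (SD, n = 3), against 251 ± 3.62 CPM in the high-glucose control.

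ACAA2, which releases acetyl-CoA at the end of each round of mitochondrial oxidation, had the largest change of the 32 genes in each medium. Its level was 0.353, 0.693 and 0.552 CPM in deprived CGRP libraries, against 2.21, 1.89 and 1.9 CPM in deprived control libraries. In 2-DG medium it was 0.937, 1.19 and 1.15 CPM with CGRP, against 2.09, 3.28 and 3.06 CPM in control. In high glucose it was 0.918, 1.28 and 1.18 CPM with CGRP, against 3.5, 3.27 and 3.67 CPM in control. CGRP libraries were lower without overlap, by -1.91 ± 0.23 in deprived medium, -1.35 ± 0.19 in 2-DG medium and -1.63 ± 0.19 in high glucose (adjusted p = 6.4e-05, 2.1e-04 and 6.8e-05). It was the only one of the 32 genes with an at least 2-fold change with CGRP in each medium, against 1.33%, 1.18% and 0.369% of all tested genes in deprived, 2-DG and high-glucose medium. These values rest on few reads: the 3 deprived CGRP libraries held 10, 18 and 17 counts. Of ACAA2's exon bases 7.59% are shared with another annotated gene.

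ACADVL was at 282, 335 and 289 CPM in deprived CGRP libraries, against 486, 470.3 and 482 CPM in deprived control libraries. In 2-DG medium it was at 313, 286 and 299 CPM with CGRP, against 405, 478 and 423 CPM in control, and in high glucose at 321, 325 and 328 CPM with CGRP, against 446, 443 and 447 CPM in control. No CGRP library reached a control library of its medium, and ACADVL did not pass in the deprivation comparisons of all libraries. Its CGRP log2 fold changes were -0.67 ± 0.07, -0.54 ± 0.07 and -0.46 ± 0.07 in deprived, 2-DG and high-glucose medium (adjusted p = 1.5e-05, 7.2e-05 and 8.4e-04).

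MLYCD was at 15.5, 16.3 and 15.8 CPM in deprived CGRP libraries, against 18.9, 20.3 and 19.2 CPM in deprived control libraries. In 2-DG medium it was at 8.23, 7.91 and 8.51 CPM with CGRP, against 11.7, 11.3 and 12 CPM in control, and in high glucose at 9.52, 8.38 and 8.87 CPM with CGRP, against 11.4, 11.7 and 11.9 CPM in control. MLYCD was thus lower with CGRP and higher with deprivation, and its log2 fold changes with CGRP were -0.30 ± 0.06, -0.50 ± 0.06 and -0.38 ± 0.06 in deprived, 2-DG and high-glucose medium (adjusted p = 0.0027, 4.8e-05 and 0.0013). CPT2 was at 36, 36.9 and 36.5 CPM in deprived CGRP libraries, against 44.9, 45.3 and 44.9 CPM in deprived control libraries. In 2-DG medium CPT2 was at 36, 35.8 and 35.2 CPM with CGRP, against 44.2, 44 and 41.6 CPM in control, and in high glucose at 38.7, 37.1 and 40.2 CPM with CGRP, against 48, 47.8 and 49.2 CPM in control. The CPT2 groups were apart in each medium, with close log2 fold changes of -0.30 ± 0.04, -0.28 ± 0.04 and -0.32 ± 0.04 (adjusted p = 2.8e-04, 4.9e-04 and 3.5e-04), and 12% of its exon bases are shared with other genes. ACSL3 was at 209, 194 and 210.2 CPM in deprived CGRP libraries, against 264, 259 and 265 CPM in deprived control libraries. In 2-DG medium ACSL3 was at 220.5, 237 and 227 CPM with CGRP, against 291, 256 and 289.8 CPM in control, and in high glucose at 232, 237 and 233 CPM with CGRP, against 291, 306 and 305 CPM in control. ACSL3 was lower in all CGRP libraries, by -0.36 ± 0.06, -0.29 ± 0.06 and -0.36 ± 0.06 on the log2 scale (adjusted p = 4.6e-04, 0.0022 and 9.4e-04).

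**Figure D3:**
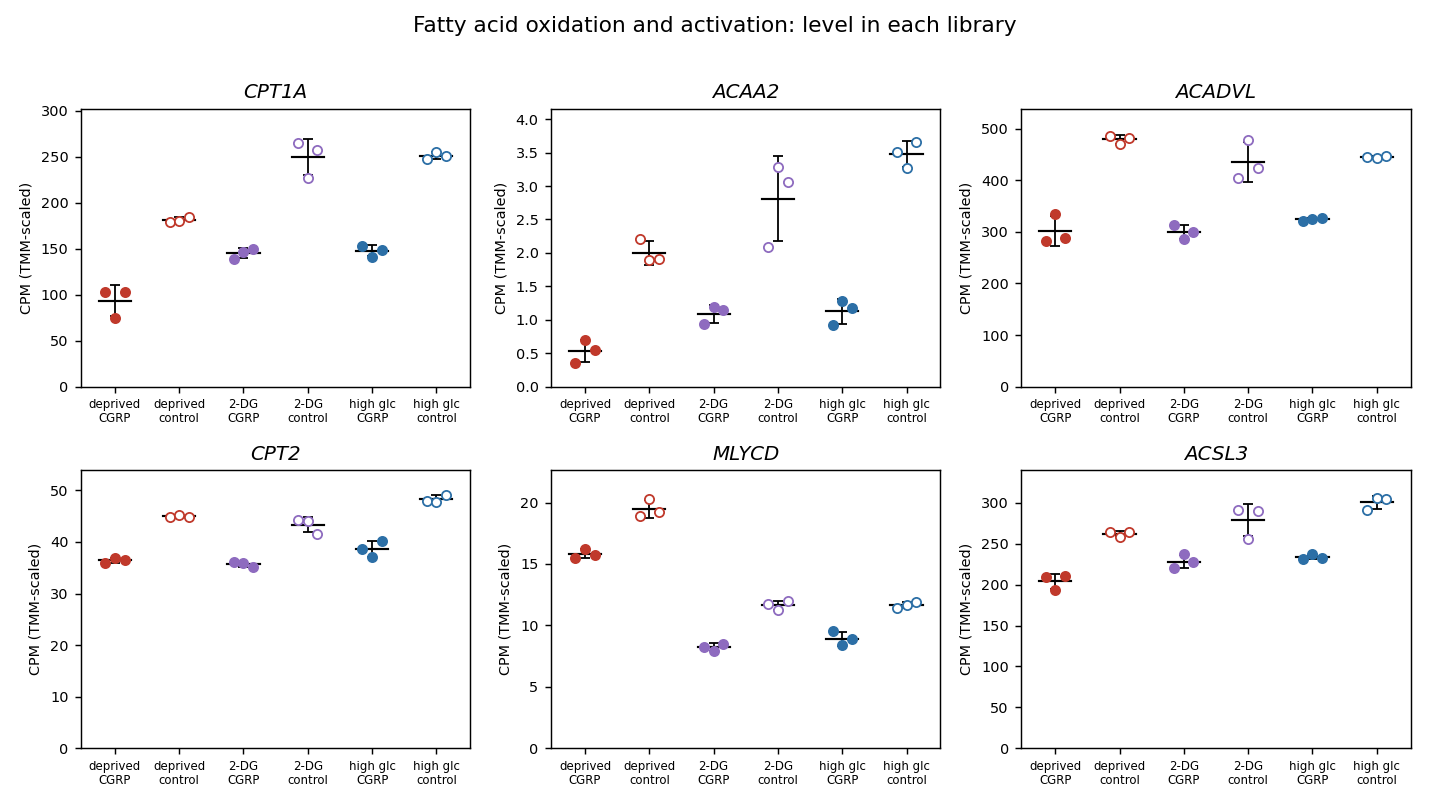
Level of 5 genes of import and oxidation and of the synthetase ACSL3 in each of the 18 libraries (vertical axes, CPM scaled by TMM, starting at 0), with the 6 groups along the horizontal axes; points are libraries, filled for CGRP and open for control, and black lines give the mean and SD of 3. The 6 genes were chosen as those called lower with CGRP in all 3 media, and in each medium the 3 filled points lie below the 3 open points.

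The remaining calls with CGRP were found in 1 or 2 media. SLC25A20 fell by 0.39 in 2-DG medium and 0.39 in high glucose on the log2 scale, and had -0.22 in deprived medium (adjusted p = 0.017, 0.036 and 0.2). In deprived medium HADHB, the beta subunit of the trifunctional protein, fell by 0.38, ACSL4 by 0.29, HADH by 0.26 and HADHA by 0.19 (adjusted p = 0.0013, 0.048, 0.0075 and 0.045). ACSL5 fell by 0.27 in deprived medium and 0.16 in 2-DG medium, and ELOVL1 and FADS2 fell by 0.21 and 0.26 in 2-DG medium (adjusted p = 0.0021, 0.036, 0.019 and 0.026). Several of these lay near the threshold. The SLC25A20 call in high glucose was lost when any 1 of the 3 control libraries, or CGRP replicate 1 or 2, was left out (adjusted p up to 0.18), and the one in 2-DG medium without control replicate 2 or CGRP replicate 1 or 2. The calls of HADHA and ACSL4 in deprived medium were lost without any 1 of the 3 control libraries. HADHA lost its call also without CGRP replicate 1 or 3 and ACSL4 without CGRP replicate 2. In 2-DG medium the ACSL5 call was lost without any 1 of the 6 libraries. ELOVL1 lost its call there without control replicate 2 or CGRP replicate 1 or 2, and FADS2 without control replicate 2 or 3 or CGRP replicate 1 or 3.

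SCD and FASN, with the largest falls under deprivation, had small positive or negative differences with CGRP. SCD was at 219 ± 50.9 CPM with CGRP and 201 ± 7.69 CPM in control in deprived medium (SD, n = 3 each), a log2 fold change of 0.12 ± 0.12 (adjusted p = 0.56). In 2-DG medium SCD was at 867 ± 46.8 CPM with CGRP and 725 ± 83.3 CPM in control, and in high glucose at 921 ± 5.53 CPM with CGRP and 808 ± 18.9 CPM in control (adjusted p = 0.21 and 0.56). FASN had -0.15 ± 0.14, 0.19 ± 0.14 and 0.10 ± 0.14 in deprived, 2-DG and high-glucose medium (adjusted p = 0.52, 0.45 and 0.86). None of these 6 values passed. The negative FASN value in deprived medium rests on CGRP replicate 2, and without both libraries that stood apart it was 0.06. Without both libraries that stood apart, SCD passed upward in all 3 media, by 0.31, 0.17 and 0.20, and FASN in high glucose, by 0.10. In that setting 4 genes rose and 15 fell in deprived medium (28.7% of all tested genes called), 3 rose and 16 fell in 2-DG medium (28.4%), and 2 rose and 12 fell in high glucose (19.1%). A fit of only the groups compared gave 0 rising and 3 falling in deprived medium (0.847% of all tested genes called), 0 and 5 in 2-DG medium (7.12%), and 2 and 13 in high glucose (21.4%). Those that passed in that fit were CPT1A, ACADVL and ACAA2 in deprived medium, and in 2-DG medium these with CPT2 and MLYCD.

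PLIN2, the most common coat protein of lipid droplets, was below the limit for testing. It had 1, 1 and 1 counts in deprived CGRP libraries, against 5, 4 and 6 counts in deprived control libraries. In 2-DG medium it had 5, 2 and 2 counts with CGRP, against 9, 12 and 7 counts in control, and in high glucose 1, 5 and 0 counts with CGRP, against 7, 10 and 9 counts in control. The CGRP libraries were lower without overlap in each medium. The ratio of summed counts, corrected for library size, was 0.209 in deprived medium (exact 95% interval 0.0388 to 0.738), 0.328 in 2-DG medium (0.136 to 0.715) and 0.219 in high glucose (0.0737 to 0.544), these intervals covering counting error only.

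Of the 32 genes 0 were called for a CGRP effect in deprived or 2-DG medium that differed from that in high glucose when all libraries were fitted. Between deprived and high-glucose medium 0 passed in edgeR's quasi-likelihood test, against 1.55% of all tested genes, with 3 at an unadjusted p under 0.05 and 0 in DESeq2. Between 2-DG and high-glucose medium 0 passed, against 0.391%, with 3 at an unadjusted p under 0.05 and 0 in DESeq2. The share of all tested genes at an unadjusted p under 0.05 is not given here, so those counts are not read as a result on the 32 genes. The difference for CPT1A was -0.19 ± 0.13 between deprived and high-glucose medium and -0.02 ± 0.13 between 2-DG and high-glucose medium on the log2 scale, and for ACAA2 -0.28 ± 0.31 and 0.27 ± 0.27. Without deprived CGRP replicate 2, 2 genes passed for the first difference (3.14% of all tested genes called). Without both libraries that stood apart, 5 fell further in deprived medium (ACSL5, ACADVL, HADH, HADHB and ETFB, against 13.5% of all tested genes called). In 2-DG medium 2 had a lower CGRP effect than in high glucose (against 5.91%). These were FADS2, at -0.21 in 2-DG medium and 0.10 in high glucose, and FADS3, at -0.11 and 0.07. Both counts are near the shares of all tested genes and are not read as a result on the 32 genes.

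Summed over each class, the balance of synthesis to oxidation transcripts differed with medium and with CGRP. The 12 synthesis genes summed to 1244 ± 109 CPM in deprived CGRP libraries and 1258 ± 16.2 CPM in deprived control libraries (SD, n = 3 in each group). They summed to 2187 ± 92 and 2019.6 ± 186 CPM in 2-DG CGRP and 2-DG control libraries, and to 2202 ± 10.3 and 2086 ± 5.4 CPM in high-glucose CGRP and high-glucose control libraries. The sum was thus lower in all deprived groups than in the other media. The 16 oxidation genes summed to 1247 ± 125 CPM in deprived CGRP libraries and 1614 ± 17.2 CPM in deprived control libraries. They summed to 1348 ± 36.1 and 1683 ± 96.4 CPM in 2-DG CGRP and 2-DG control libraries, and to 1441 ± 20.2 and 1765 ± 17.6 CPM in high-glucose CGRP and high-glucose control libraries. Here the CGRP libraries lay below the control libraries in each medium. The ratio of the sums was 1.01 ± 0.179 in deprived CGRP and 0.779 ± 0.0114 in deprived control libraries, 1.62 ± 0.112 in 2-DG CGRP and 1.21 ± 0.174 in 2-DG control libraries, and 1.53 ± 0.0175 in high-glucose CGRP and 1.18 ± 0.0104 in high-glucose control libraries. These sums are descriptions without a test, and the genes with most reads weigh most in them. The wide SD of the deprived CGRP and 2-DG control groups comes with the 2 libraries that stood apart, at ratios of 0.804 and 1.01.

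**Figure D4:**
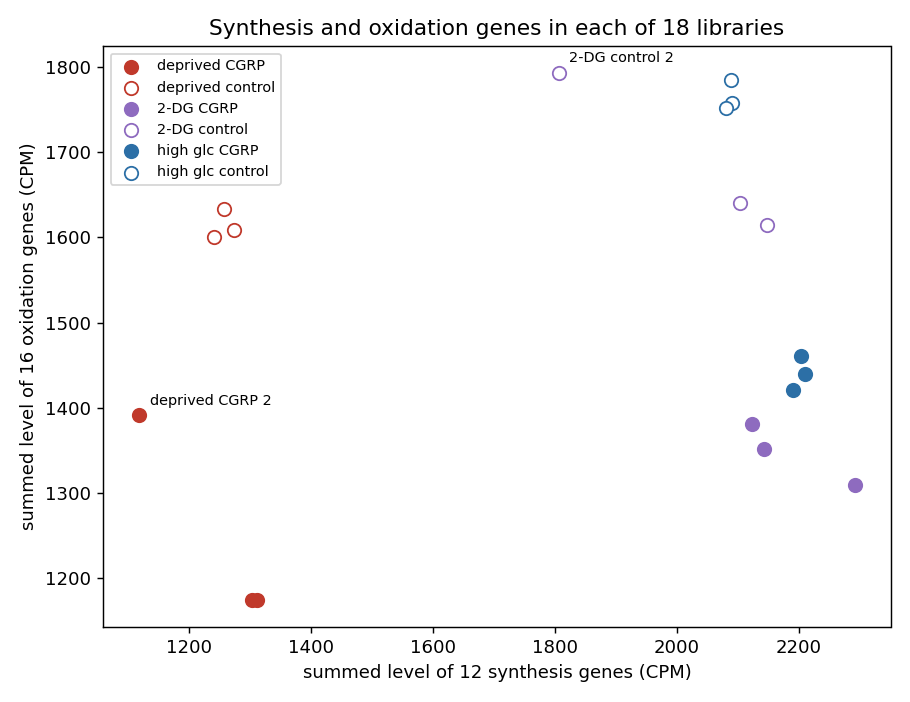
Summed level of the synthesis genes (horizontal axis) against that of the oxidation genes (vertical axis), both in CPM scaled by TMM. Each point is a library, coloured by medium, filled for CGRP and open for control, and labels mark both libraries that stood apart. Synthesis sums are low in all deprived libraries, and oxidation sums are lower with CGRP than in control in each medium.

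The medium and CGRP effects can be set side by side with no library in common by taking deprivation over high glucose in control medium and CGRP over control in 2-DG medium. SCD and FASN had -2.01 and -1.76 in the first and 0.26 and 0.19 in the second. ACADVL had 0.11 and -0.54, and MLYCD 0.74 and -0.50. CPT1A, ACAA2 and SLC25A20 were lowered by both, at -0.47 and -0.78, -0.80 and -1.35, and -0.68 and -0.39. Over the class, the median was -0.41 for synthesis and -0.25 for oxidation genes in the first, and -0.02 and -0.23 in the second, against 0.02 and -0.01 over all tested genes. Without both libraries that stood apart, these medians were -0.44 and -0.28 in the first, and -0.06 and -0.12 in the second. The class contrast in the second was thus smaller in that setting. There SCD and FASN had 0.17 and 0.07 in the second, ACADVL -0.47 and MLYCD -0.52. CPT1A had -0.85, ACAA2 -1.22 and SLC25A20 -0.35.

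**Figure D5:**
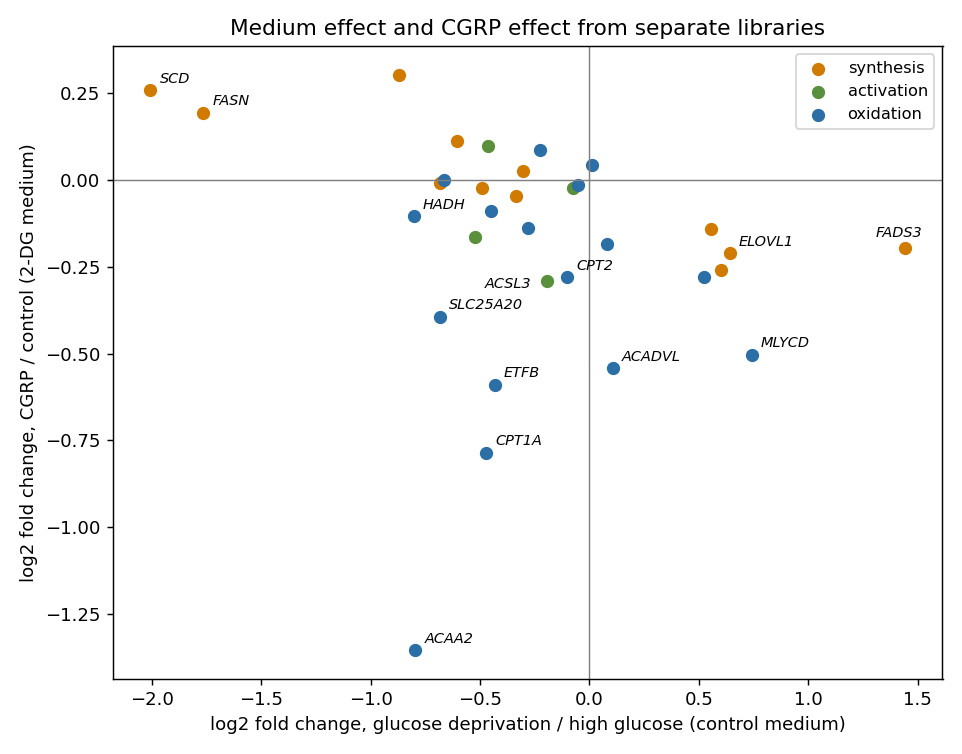
log2 fold change of the 32 tested genes with glucose deprivation in control medium (horizontal axis) against that with CGRP in 2-DG medium (vertical axis), 2 comparisons with no library in common; each point is a gene, coloured by class. SCD and FASN lie far to the left near 0 on the vertical axis, and ACAA2, CPT1A, MLYCD and ACADVL lie low on the vertical axis.

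Of the 91 other pathway genes, 13 rose and 5 fell with CGRP in deprived medium, 12 rose and 3 fell in 2-DG medium, and 6 rose and 4 fell in high glucose. These are 19.8%, 16.5% and 11% of the 91, against 13%, 12.2% and 4.33% of all tested genes. ANGPTL4, a known PPAR target, fell in all 3, by 2.55, 1.44 and 1.18 on the log2 scale in deprived, 2-DG and high-glucose medium, as did MGLL, by 0.37, 0.57 and 0.46. By the ranking used above, the third-largest fall in deprived medium was that of the flavoprotein dehydrogenase ETFDH (-0.26). It was that of the fatty acid transporter SLC27A4 (-0.45) in 2-DG medium and of the acyltransferase DGAT2 (-0.30) in high glucose. Among called genes with a mean log2 CPM of at least 0, the largest rises in deprived medium were those of PLIN4 (0.96), PLIN5 (0.90) and SREBF1 (0.49). In 2-DG medium they were those of PLIN4 (0.76), PLIN5 (0.66) and INSIG1 (0.51). In high glucose they were those of SREBF1 (0.39), INSIG2 (0.33) and the peroxisomal carnitine transferase CROT (0.32). Outside these limits, values in deprived medium ran up to 1.19 among other mitochondrial oxidation genes and 1.13 among transcription factors and control genes. SREBF1 was at 61.9, 63.6 and 62.7 CPM in deprived CGRP libraries, against 43.9, 45.1 and 45 CPM in deprived control libraries, and at 124, 137 and 129.8 CPM in high-glucose CGRP libraries, against 102, 96.3 and 102 CPM in high-glucose control libraries. SREBF1 was therefore higher in all CGRP libraries of both media, while deprivation lowered it in both arms.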

How the data were processed

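RNA of 18 Cal27 cultures was sequenced. The deposited table gives raw counts of 60683 Ensembl gene IDs in each library, per the file headers. HISAT2 2.0.4 was the authors' aligner, and builds of both hg19 and GRCh38 are named, per the submitters' processing notes. The counting program, its annotation, its strand setting and its handling of overlapping genes are each not given in the sources used here.

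Symbols were matched through a gene name table for 60370 IDs. The low-count filter of edgeR (filterByExpr on the 6 groups, at least 10 counts and at least 15 in total) left 18159 genes. Counts were scaled by TMM and tested with the quasi-likelihood F test of edgeR 4.0.16 (robust, R 4.3.3) in 1 fit of 18 libraries and 6 group means, which leaves 12 residual degrees of freedom. The Benjamini-Hochberg adjustment ran over all tested genes within a comparison, at 0.05 with no fold threshold, and the common biological coefficient of variation was 9.44%. Standard errors are the log2 fold change divided by the root of F. CPM are counts scaled to the TMM-adjusted library total, and levels between genes are per kilobase of merged GENCODE 29 exons. Totals of 28.04M to 32.66M counts limit the precision of the lowest genes, and intervals cover counting error only.

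The comparisons were deprivation and 2-DG against high glucose in each arm, 2-DG against deprivation in control medium, CGRP against control in each medium, and the 2 differences of CGRP effects from high glucose. The 33 genes and the lists of other pathway genes and markers were chosen with earlier results of these data known. Among media, up to 6 risers and 6 fallers by size of change have values per library, and ACLY and ACACB are added where they passed. With CGRP each gene that passed is named. Of the other pathway genes those named are the 3 largest called changes each way with a mean log2 CPM of at least 0. Between media SREBF1, SREBF2, PPARA, PPARD, PPARGC1A and TXNIP are named in any case. Values of further genes were chosen after they were seen. The alternatives were RLE size factors, the DESeq2 1.42.0 Wald test, no filter, a filter at 1 CPM in 3 libraries with a mean above 2 CPM, fitting only the groups compared, blocking on the replicate number, and leaving out each library in turn. Leaving out both libraries that stood apart and total-count scaling were added after the data were seen.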

Additional observations from a re-analysis of the deposited data

Results flagged for a closer look

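Of the genes reported, 3 had a CGRP effect that differed between deprived and high-glucose medium by edgeR's quasi-likelihood test of the difference, and none of them is among the 33 genes. PPARGC1A, a coactivator of oxidative genes, had a difference of 1.43 ± 0.33 on the log2 scale (adjusted p = 0.042). It was at 0.565, 0.539 and 0.747 CPM in deprived CGRP libraries, against 0.296, 0.31 and 0.238 CPM in deprived control libraries, and at 0.857, 0.844 and 0.922 CPM in high-glucose CGRP libraries, against 0.834, 1.05 and 1.35 CPM in high-glucose control libraries. ANGPTL4 had a difference of -1.38 ± 0.28 (adjusted p = 0.019). It was at 2.58, 1.08 and 2.05 CPM in deprived CGRP libraries, against 13.7, 8.99 and 11.2 CPM in deprived control libraries, and at 20.8, 16.9 and 20.0 CPM in high-glucose CGRP libraries, against 45.7, 42 and 43.1 CPM in high-glucose control libraries. ANGPTL4 was thus lower with CGRP in both media, with the larger fold in deprived medium. TXNIP had a difference of -0.68 ± 0.09 (adjusted p = 9.0e-04), being lower with CGRP in deprived medium (-0.34) and higher in high glucose (0.35).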

How the results depend on the processing

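Of the 33 genes, those called with deprivation numbered 24 in each arm, 24 to 25 and 24 to 30 with 1 library left out (control and CGRP arm), and 24 to 30 and 23 to 30 under the other settings. Over all tested genes 11011 and 10976 were called. These became 10064 to 10153 and 10090 to 11781 with 1 library left out, and 8561 to 13377 and 8588 to 12921 under the other settings. The median of synthesis minus oxidation genes stayed negative throughout, -0.19 to -0.15 without CGRP and -0.35 to -0.05 with it. These settings refit largely the same libraries, so the constant sign is not independent support. Between replicates of a group, the class difference in median log2 level had an SD of 0.216, pooled over the 6 groups. For 2-DG in control medium the 7 became 4 with no low-count filter, 2 with only the groups compared, 18 without both libraries that stood apart, and 4 to 7 with 1 library left out. For 2-DG with CGRP the 0 became 1 in DESeq2, 8 with only the groups compared and 11 without both libraries. Over all tested genes, the 2513 called for 2-DG in control medium became 1593 to 2078 with 1 library left out and 1551 to 5997 under the other settings. With CGRP the 434 became 157 to 197 and 246 to 3598. With CGRP in high glucose the 7 became 15 with only the groups compared and 14 without both libraries. In deprived medium the 11 became 3 and 19 under these settings, and in 2-DG medium the 10 became 5 and 19, with 6 to 9 when 1 library was left out. The difference of CGRP effects between deprived and high-glucose medium gave 0 to 2 genes with 1 library left out and 5 without both libraries, and that between 2-DG and high-glucose medium 2 without both. Over all tested genes the CGRP counts moved too, given here with 1 library left out and under the other settings. In high glucose 787 became 353 to 487 and 474 to 3653. In deprived medium 2354 became 1282 to 2726 and 141 to 5307, and in 2-DG medium 2216 became 1447 to 1826 and 1194 to 5249. For the first difference 282 became 162 to 582 and 163 to 2500, and for the second 71 became 13 to 50 and 30 to 1092. Fewer samples or another pool of spread enter these fits, and the cause was otherwise not tested.

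Among values called in either setting, directions reversed for HSD17B4 with deprivation under total-count scaling (-0.048). Without both libraries they reversed for ACACA with 2-DG (0.14), for FADS1 (0.13), ECI1 (-0.23), ETFB (-0.50) and PPARA (0.19) with CGRP in deprived medium, for ECI2 with CGRP in 2-DG medium (0.13), and for ETFB in the difference between deprived and high-glucose medium (-0.36). In all, 33 of 320 values of the 32 genes changed sign without both libraries, of which 6 were called in either setting, and FASN (0.056) and ACACA (0.028) with CGRP in deprived medium were among those that were not. Total-count scaling moved the median of all tested genes with deprivation in control medium to -0.13, against 0.02.

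Over 45 pairs of same-numbered libraries the correlation of deviations had a median of -0.0055, with 6 pairs over 0.1, so the numbers were not taken as pairing the samples. Deprived CGRP and 2-DG control, which no comparison sets against each other, had the largest, with correlations of 0.37, 0.64 and 0.33 for replicates 1, 2 and 3, the second being that of both libraries that stood apart. Differently numbered pairs of replicates 1 and 3 of these groups had 0.30 and 0.39. Deviations were taken from group means that include replicate 2, so its deviation enters those of its mates with opposite sign. The values of replicates 1 and 3 are thus not independent of both libraries that stood apart. The other same-numbered pairs over 0.1 all held high-glucose CGRP. They were with deprived CGRP (0.17 and 0.12 for replicates 1 and 2), a group it is compared with, and with 2-DG control (0.145 for replicate 1). With the replicate number as a replicate block, 24 and 24 genes passed with deprivation without and with CGRP, 8 and 0 with 2-DG, and 21 between 2-DG and deprivation. With that block CGRP gave 7 in high glucose, 11 in deprived medium and 10 in 2-DG medium, and both differences gave 0. Counts over all tested genes with the block lie within the ranges given above for the other settings. Between 2-DG and deprivation that range was 8300 to 12351. Few counts limit ACAA2 and PLIN2 most, and the alignment build, the counting rules and the reading of TG as CGRP limit all results.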
